A study of Mus musculus with 60 samples.

Results

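The ribosome biogenesis genes described here are 41 genes of the nucleolus, of ribosomal RNA processing and of RNA polymerase I. They were chosen by name from the 55414 genes of a count table of mouse CD8 T cells, through the Ensembl identifier of each row, and all 41 were found and had enough reads to be tested in every comparison. Ribosomes are assembled mostly in the nucleolus, where RNA polymerase I transcribes the ribosomal RNA precursor, small nucleolar ribonucleoproteins (snoRNPs) modify it, and assembly factors fold, cut and package it into the small and the large subunit. Naive T cells are small, and growth before the first division after activation is known to be accompanied by more ribosome production, in which the transcription factor MYC takes part. The 41 genes comprise 9 of the snoRNPs, 5 of RNA polymerase I, 11 of the small subunit, 11 of the large subunit and 5 of abundant nucleolar proteins with several roles.

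The cells came from NOD mice, a strain prone to autoimmune diabetes, that carry OT-I, a transgenic T cell receptor for an ovalbumin peptide. They were naive CD8 T cells enriched from spleen by removal of other cells. Mice were either Sh2b3 -/- (knockout), without the adaptor protein SH2B3 that acts at cytokine receptors and on JAK kinases, or wild type. Cells of each genotype were collected unstimulated (0 h, 11 libraries per genotype), or after 2, 6 or 24 h with plate-bound anti-CD3 at 10 µg/mL and soluble anti-CD28 at 5 µg/mL (5 libraries each). In 4 more libraries per genotype the 24 h culture contained anti-IL-2 at 10 µg/mL. The title of knockout replicate 4 at 24 h without anti-IL-2 reads only KO, where the other knockout titles read NOD Sh2b3 -/-. The labels say neither how Sh2b3 was disrupted nor whether replicates are separate animals, so p-values measure the spread between these samples, which may be technical.

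Total counts ran from 13987029 to 35476519 per library, with a median of 17994613. Levels are in CPM, a gene's count scaled to the library total after TMM normalization, so they are shares of the messenger RNA pool. A share gives no amount per cell, so a lower share need not be less RNA per cell. Nor does it tell fewer cells with a gene's RNA from less of that RNA in each. Sh2b3 was lower in knockout libraries in all 5 genotype comparisons, by −2.57 log2 units at 0 h, −2.77 at 2 h, −2.50 at 6 h, −2.69 at 24 h and −2.25 with anti-IL-2 (13.5 CPM in knockout and 79.4 CPM in wild type on average at 0 h). The summed level of 6 CD8 T cell markers lay between 2029 and 5705 CPM, against at most 151.03 CPM for 4 erythroid markers, 126.97 CPM for 4 NK cell markers, 64.1 CPM for 5 B cell markers, 17.96 CPM for 5 monocyte and macrophage markers, 10.5 CPM for 4 platelet markers, 8.40 CPM for 5 dendritic cell markers, 4.52 CPM for 5 neutrophil markers and 3.99 CPM for 2 CD4 T cell markers. Of the NK cell markers, Eomes stood at 11.1 to 126.9 CPM, and Ncr1, Klrb1c and Klra8 at no more than 2.78, 2.23 and 0.49 CPM. The library names carry numbers that fall into 4 runs, called sets A to D here, a grouping for which no label gives a meaning. All 2 h and 6 h libraries belong to set A, together with 5 unstimulated ones per genotype. The untreated 24 h libraries are split between set B (2 per genotype, with 2 at 0 h) and set C (3 per genotype, with 4 at 0 h), and the anti-IL-2 libraries alone make up set D. Anti-IL-2 and library set therefore cannot be told apart, and the sets differed in the 41 genes at 24 h, as described with the results they touch.

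The 41 genes rose as a group after stimulation in both genotypes. Together they took 0.471 to 0.565% of all counts in knockout libraries and 0.482 to 0.537% in wild-type libraries at 0 h. At 2 h these shares were 0.455 to 0.714% in knockout and 0.583 to 0.675% in wild type, and at 6 h 0.658 to 1.32% in knockout and 0.955 to 1.21% in wild type. At 24 h they were 1.16 to 1.72% in knockout and 0.966 to 1.56% in wild type. At 24 h no library of either genotype overlapped the 0 h range, whereas at 2 h knockout libraries lay on both sides of it.

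**Figure D1:**
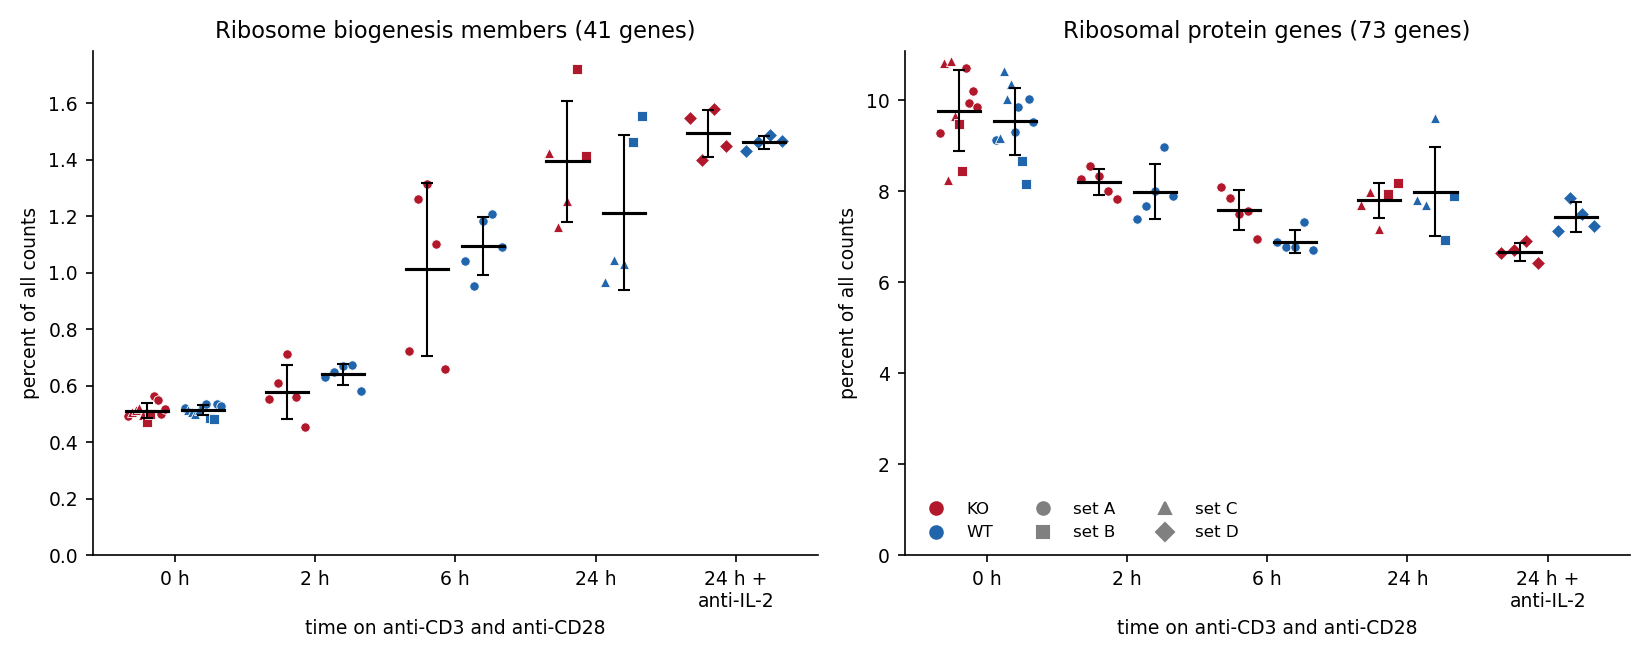
Share of all counts in each library (%, linear axis) taken by the 41 ribosome biogenesis genes and by 73 ribosomal protein genes, by time and anti-IL-2, with knockout (KO) left of wild type (WT), 1 point per library and lines for mean ± SD. The ribosome biogenesis genes took 1.16 to 1.72% of counts in knockout and 0.966 to 1.56% in wild type at 24 h, against 0.471 to 0.565% in knockout and 0.482 to 0.537% in wild type at 0 h.

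In wild type, 22 of the 41 genes were called higher and 2 lower at 2 h against 0 h, 37 higher and 0 lower at 6 h, and 38 higher and 0 lower at 24 h (edgeR quasi-likelihood test, called at a Benjamini-Hochberg adjusted p under 0.05 over 14431 genes). Of all genes tested, 26.4% were called higher and 27.2% lower at 2 h, 24.9% higher and 24.1% lower at 6 h, and 27.8% higher and 31.6% lower at 24 h. The median log2 difference of the 41 was 0.32 at 2 h, 0.85 at 6 h and 0.87 at 24 h. These 3 comparisons share the same 0 h libraries. In direct comparisons of later times, 37 were called higher and 0 lower at 6 h against 2 h, where 18.8% of all genes were called higher and 18.5% lower. At 24 h against 6 h, 8 were called higher and 2 lower, where 14.8% of all genes were called higher and 17.5% lower. No set holds both 6 h and 24 h libraries, so this last comparison runs through the 0 h libraries of each set. With scaling by library totals alone it called 6 higher and 4 lower.

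In the knockout, 7 of the 41 genes were called higher and 1 lower at 2 h, 37 higher and 0 lower at 6 h, and 38 higher and 0 lower at 24 h, among 14726 genes tested. Of all genes, 23.9% were called higher and 24.5% lower at 2 h, 22.8% higher and 19.8% lower at 6 h, and 30.1% higher and 29.8% lower at 24 h. The medians of the 41 were 0.12, 0.77 and 1.22 log2 units. The median at 2 h was 0.0013, with 21 of 41 above 0, without knockout replicate 3 at 2 h, and 0.19 without replicate 5. In set A alone 6 members were called higher and 1 lower at 2 h, and 8 higher and 3 lower when library numbers 10 apart were taken as a replicate block. At 6 h against 2 h, 31 were called higher and 0 lower (17% and 13.8% of all genes), and at 24 h against 6 h 10 higher and 0 lower (17% and 16.2% of all genes). The last count was 17 without knockout replicate 3 at 6 h. By group means, 37 of the 41 genes had their highest level at 24 h in the knockout and 4 at 6 h, against 24 at 24 h and 17 at 6 h in wild type. These means hold no term for the set, and no set holds both times. The average log2 level of the 41 was also taken relative to wild type at 0 h. By it knockout replicates 1 and 5 at 6 h stood at 0.27 and 0.17, and the other knockout libraries at 0.95 to 1.28. Wild type averaged 0.91 at 6 h, and at 24 h 1.28 in set B and 0.74 in set C.

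The 9 snoRNP genes were all called higher at 24 h in both genotypes, with a median of 1.62 log2 units in knockout and 1.06 in wild type. They encode the box C/D proteins Fbl (the RNA methyltransferase fibrillarin), Nop56, Nop58 and the U3-specific Rrp9, the box H/ACA proteins Dkc1 (the pseudouridine synthase dyskerin), Gar1, Nhp2 and Nop10, and the snoRNP chaperone Nolc1. Nhp2 had the largest wild-type difference of this role and Nop56 the smallest. Nhp2 stood at 207, 187, 176, 258 and 207 CPM in knockout libraries at 24 h, against a lowest, median and highest of 30.7, 45.1 and 57.4 CPM at 0 h. Nhp2 in wild type stood at 133.6, 149, 175, 168 and 213 CPM at 24 h, against 36.7, 46.3 and 55.6 CPM at 0 h. The groups did not overlap in either genotype, and the differences were 2.24 ± 0.20 (SE) log2 units in knockout (adjusted p = 5.8e-10) and 1.83 ± 0.12 in wild type (adjusted p = 1.2e-14).

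Nop56 had 417, 359, 292, 598 and 437 CPM in knockout libraries at 24 h, against 179, 201 and 259 CPM (lowest, median, highest) at 0 h. Its wild-type levels were 281, 281, 327, 452 and 499.9 CPM at 24 h, against 182, 216 and 242 CPM at 0 h. Every 24 h library was again above every 0 h library, by a smaller step than for Nhp2, with 0.99 ± 0.17 log2 units in knockout and 0.76 ± 0.11 in wild type. The role split in time: at 2 h only Nop58 (0.59 ± 0.12) and Nolc1 (0.73 ± 0.11) of the 9 were called higher in wild type, whereas at 6 h all 9 were. At 24 h against 6 h, Fbl (0.53 ± 0.13), Dkc1 (0.35 ± 0.13) and Nhp2 (0.88 ± 0.17) were called higher in wild type. In the knockout Fbl (0.77 ± 0.24), Dkc1 (0.68 ± 0.23), Nhp2 (1.19 ± 0.28), Gar1 (0.95 ± 0.31) and Nop10 (0.72 ± 0.23) were.

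The 5 RNA polymerase I genes had the lowest medians of the 5 roles, at 0.53 log2 units in knockout and 0.45 in wild type at 24 h. Polr1a and Polr1b encode the catalytic subunits, Polr1c a subunit shared with RNA polymerase III, Polr1e a subunit of the enzyme's periphery, and Tcof1 treacle, a nucleolar protein that promotes ribosomal RNA transcription. Polr1b had 181, 131.5, 162, 222 and 139.8 CPM in knockout libraries at 24 h, against 60.7, 72.9 and 81.7 CPM (lowest, median, highest) at 0 h. Wild-type libraries had 117, 126, 120.4, 181 and 177 CPM at 24 h, against 61.6, 72.2 and 85.6 CPM at 0 h. All 24 h libraries lay above the 0 h range, with differences of 1.13 ± 0.20 log2 units in knockout and 0.82 ± 0.10 in wild type. By group means its wild-type level was 2.21 times that of 0 h at 6 h and 1.99 times at 24 h. The fit called 24 h against 6 h lower at −0.44 ± 0.15 (adjusted p = 0.022). No set holds both times, and the wild-type 24 h levels split by set, with 117 to 126 CPM in set C and 181 and 177 CPM in set B.

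Tcof1 was the exception of this role. It had 356, 277, 292, 414 and 324 CPM in knockout libraries at 24 h, against 199, 280.1 and 329 CPM (lowest, median, highest) at 0 h. Its wild-type levels were 242, 266, 241, 353 and 342 CPM at 24 h, against 215, 293 and 347 CPM at 0 h. The groups overlapped in both genotypes, with 0.31 ± 0.13 log2 units in knockout (adjusted p = 0.037) and 0.09 ± 0.09 in wild type (adjusted p = 0.41). At 2 h Tcof1 fell in both, with −0.44 ± 0.13 in knockout and −0.54 ± 0.09 in wild type. Its 2 h levels were 214, 214, 235, 221 and 201 CPM in knockout and 203, 219.8, 237, 218 and 225 CPM in wild type, all within the 0 h range except wild-type replicate 1, below it. Polr1c was called higher in wild type at 2 h (0.32 ± 0.09) and 24 h (0.45 ± 0.08), but at 6 h stood at 0.13 ± 0.09 (adjusted p = 0.23).

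Of the 11 small-subunit genes, 10 were called higher at 24 h in each genotype, with a median of 1.12 log2 units in knockout and 0.79 in wild type. Most act in the small-subunit processome, the large particle that assembles on the nascent precursor: Utp15, Utp18, Utp20, Wdr43, Heatr1, Nop14, Rcl1 and Bysl. Rrp12 and Pno1 follow the particle further, and Nob1 is the endonuclease that makes the last cut of the small-subunit ribosomal RNA in the cytoplasm. Pno1, the partner of Nob1 in yeast, had the largest wild-type difference of all 41 genes. It had 115, 76.7, 86.7, 132.03 and 117 CPM in knockout libraries at 24 h, against 18.7, 26.6 and 34.7 CPM (lowest, median, highest) at 0 h. Wild-type libraries had 93.4, 82.0, 100.9, 129 and 129 CPM at 24 h, against 20.3, 25.7 and 30.4 CPM at 0 h. The groups stood well apart in both genotypes, at 2.02 ± 0.20 log2 units in knockout and 2.07 ± 0.11 in wild type.

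Nob1 had 86.9, 88.3, 76.8, 109 and 84.0 CPM in knockout libraries at 24 h, against 58.1, 73.2 and 81.2 CPM (lowest, median, highest) at 0 h. Its levels in wild type were 65.7, 70.5, 55.5, 83.9 and 92.2 CPM at 24 h, against 61.9, 72.6 and 88.6 CPM at 0 h. It was called at no time in either genotype, and the groups overlapped, with 0.30 ± 0.13 log2 units in knockout (adjusted p = 0.055) and −0.08 ± 0.12 in wild type (adjusted p = 0.55). Within set B alone the wild-type difference was 0.46 (adjusted p = 0.0040). Utp20, another processome protein, was lower at 2 h in wild type by −0.32 ± 0.10, and 6 h against 2 h was higher by 1.51 ± 0.10 (adjusted p = 1.9e-13), the largest of the 41 in that comparison. Rcl1 (0.87 ± 0.11), Pno1 (0.66 ± 0.11) and Utp15 (0.64 ± 0.10) led the small-subunit genes at 2 h in wild type.

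The 11 large-subunit genes had 9 called higher in knockout and 10 in wild type at 24 h, with medians of 1.12 and 0.90 log2 units. Bop1, Pes1 and Wdr12 form the PeBoW complex of large-subunit processing, Nop2 is a ribosomal RNA methyltransferase, Ddx18 an RNA helicase, Gnl3 the nucleolar GTPase nucleostemin, and Nle1 acts with the ATPase Mdn1 in late nuclear steps, as known from its yeast relative. Wdr12 had 145, 159, 135.1, 126 and 94.5 CPM in knockout libraries at 24 h, against 28.2, 32.4 and 42.8 CPM (lowest, median, highest) at 0 h. Wild-type Wdr12 levels were 98.5, 125, 121, 119 and 125 CPM at 24 h, against 30.2, 35.2 and 50.5 CPM at 0 h. Every 24 h library was above the 0 h range, at 1.92 ± 0.15 log2 units in knockout and 1.60 ± 0.10 in wild type. Its complex partners had smaller differences, with 1.06 ± 0.14 for Bop1 and 1.02 ± 0.15 for Pes1 in knockout, and 0.67 ± 0.10 and 0.75 ± 0.10 in wild type.

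Nle1 had 58.1, 57.6, 36.3, 71.8 and 62.3 CPM in knockout libraries at 24 h, against 44.5, 50.8 and 60.9 CPM (lowest, median, highest) at 0 h. Nle1 in wild type had 30.6, 50.7, 45.9, 57.1 and 72.7 CPM at 24 h, against 46.0, 52.1 and 66.0 CPM at 0 h. The groups overlapped on both sides, and it was not called in either genotype, at 0.15 ± 0.18 log2 units in knockout (adjusted p = 0.49) and −0.05 ± 0.12 in wild type (adjusted p = 0.73). Set B alone gave 0.47 in wild type (adjusted p = 0.014). Gnl3 was 0.57 ± 0.26 higher in knockout at 24 h, which did not pass (adjusted p = 0.061), and 0.46 ± 0.13 higher in wild type, which did (adjusted p = 0.0028). Nop16 led all 41 genes at 2 h and at 6 h in wild type, with 1.05 ± 0.13 and 1.63 ± 0.13 log2 units.

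All 5 multirole nucleolar genes were called higher at 24 h in both genotypes, with a median of 1.67 log2 units in knockout and 1.48 in wild type. Ncl (nucleolin) and Npm1 (nucleophosmin) are abundant nucleolar RNA-binding proteins, Ddx21 is an RNA helicase, Mybbp1a a nucleolar MYB-binding protein, and Pa2g4 a protein found in nucleoli and on ribosomes. Pa2g4 had 691, 508, 570.4, 808 and 614 CPM in knockout libraries at 24 h, against 144, 162 and 194 CPM (lowest, median, highest) at 0 h. Wild-type libraries had 393, 438, 473, 689 and 708 CPM at 24 h, against 141, 163 and 184 CPM at 0 h. Every 24 h library was above every 0 h library, and the differences were 2.00 ± 0.17 log2 units in knockout and 1.69 ± 0.10 in wild type. Ddx21 had 822, 673, 729, 983 and 724 CPM in knockout libraries at 24 h, against 284, 339.7 and 429 CPM at 0 h. Its wild-type levels were 478, 569, 503, 745 and 775 CPM at 24 h, against 309, 371 and 401 CPM at 0 h. This was the smallest wild-type step of the role, at 0.81 ± 0.09 log2 units, against 1.31 ± 0.18 in knockout.

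Npm1 and Ncl were already the most abundant of the 41 per kilobase of annotated exon. In wild type at 24 h, Npm1 stood at 764 ± 203 CPM per kb and Ncl at 232 ± 67.8 CPM per kb (SD, n = 5), against 279 ± 30.4 CPM per kb for Npm1 and 71.9 ± 4.99 CPM per kb for Ncl at 0 h (SD, n = 11). The lowest per kb at 0 h were Polr1a with 8.26 ± 0.66, Polr1e with 7.96 ± 0.58 and Wdr12 with 3.01 ± 0.47 CPM per kb. Wdr12, with the lowest level per kb of the 41 at 0 h, had risen to 9.86 ± 0.93 CPM per kb at 24 h, whereas Tcof1 was at 54.9 ± 10.4 CPM per kb at 24 h and 55.1 ± 7.42 CPM per kb at 0 h. The length used is the union of all annotated exons of a gene, 11955 bases for Wdr12 and 1717 for Pno1. A place by level per kb thus depends on the annotation as well as on the reads. Npm1 rose after 2 h: in wild type 2 h against 0 h was 0.09 ± 0.11 log2 units and not called. At 6 h it was called higher than at 0 h, as were all 5 genes of this role, with a mean 1.74 times that at 0 h. At 24 h against 6 h it was higher by 0.82 ± 0.15 (adjusted p = 7.1e-05). Ncl was already called higher at 2 h, at 0.59 ± 0.11.

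**Figure D2:**
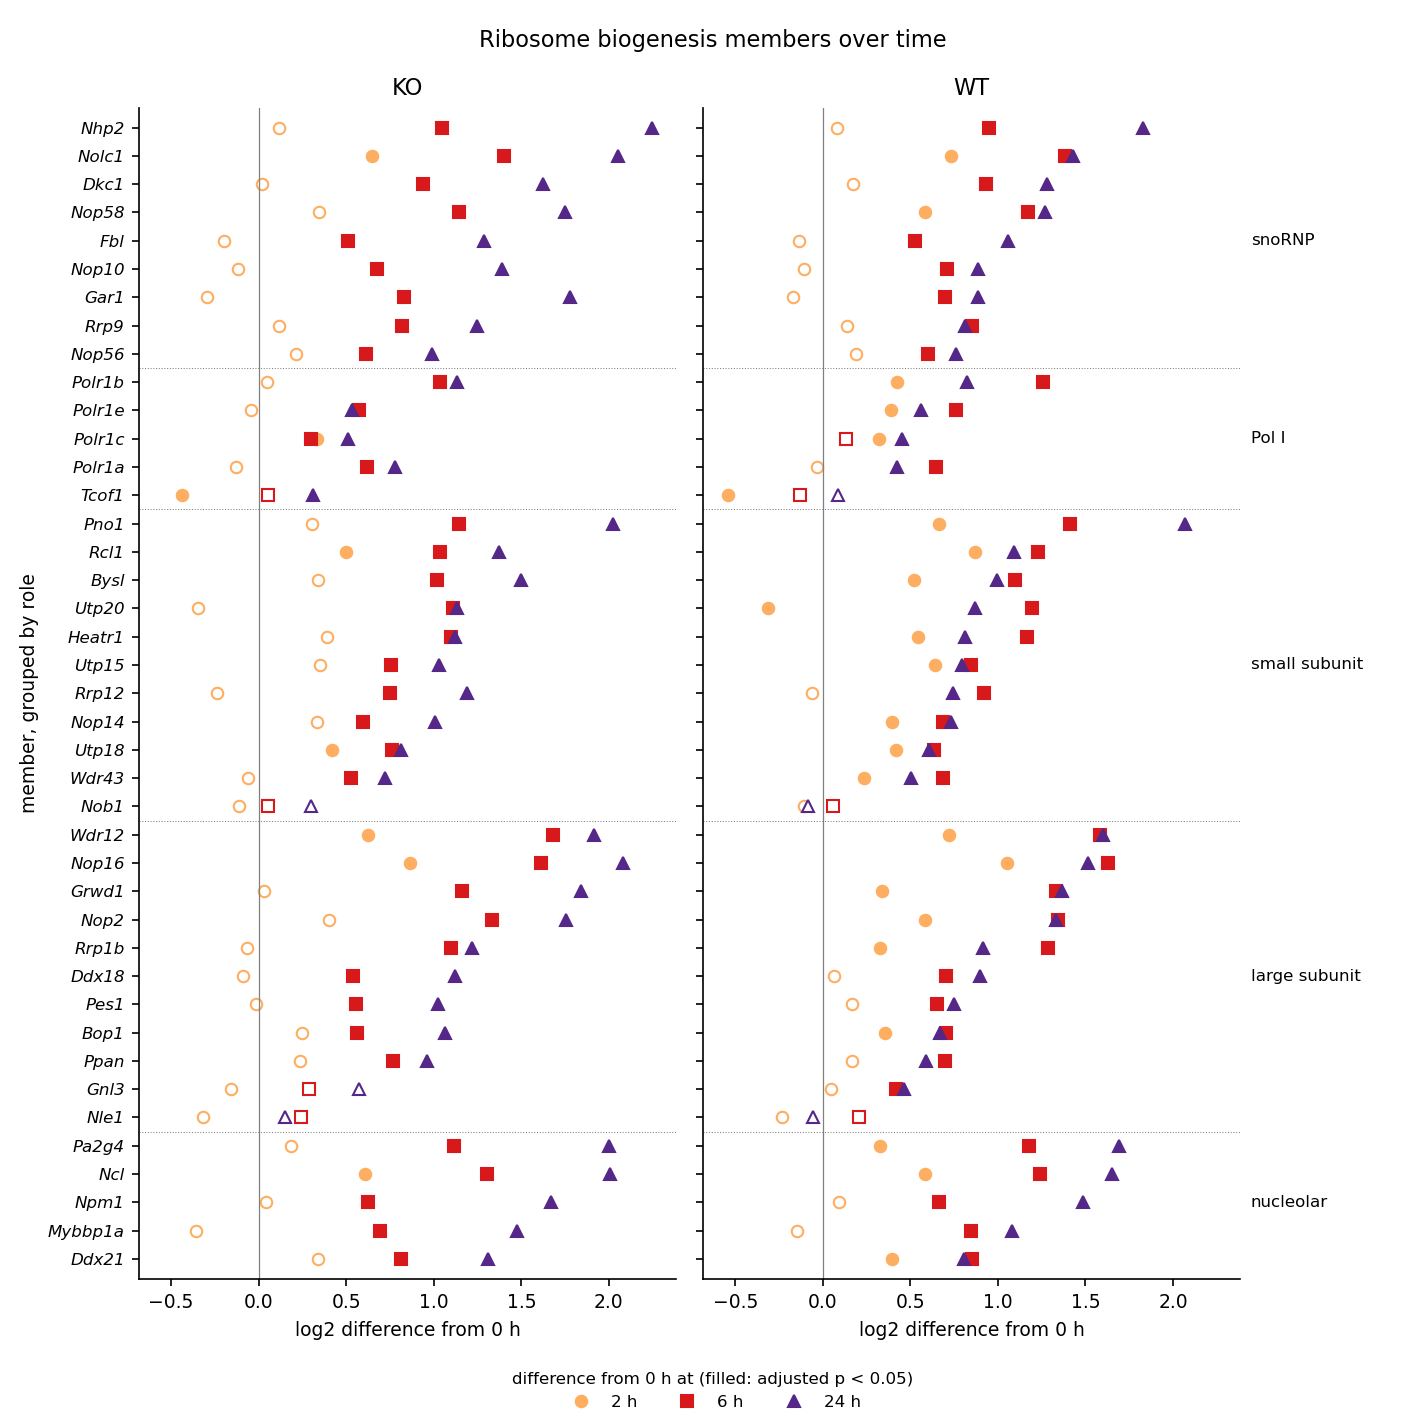
Log2 difference from 0 h (horizontal axis, log2 units) at 2, 6 and 24 h for all 41 genes grouped by role, in knockout (KO, left) and wild type (WT, right), with filled symbols for adjusted p under 0.05. Nhp2 reaches 2.24 in KO and 1.83 in WT at 24 h, whereas Nob1 is at 0.30 and −0.08 and Nle1 at 0.15 and −0.05, all unfilled.

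Overlapping genes may affect some of these values, since the sources used here do not say whether counting used strand. In the annotation 15 of the 41 members overlap a coding gene on the other strand, among them Nhp2, Nop56, Pno1, Wdr12 and Nle1, and 7 host small nucleolar RNA genes on their own strand, among them Ncl, Nop56 and Gnl3. These overlaps were taken over whole gene spans, introns included. Whether reads of such partners changed the values cannot be told from the counts.

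Other genes of ribosome biogenesis, taken from a list of 102 of which 99 were matched and tested, followed a like course. At 2 h in wild type 54 were called higher and 8 lower, at 6 h 78 higher and 3 lower, and at 24 h 81 higher and 7 lower, with medians of 0.30, 0.63 and 0.60 log2 units. In the knockout these counts were 30 higher and 6 lower, 74 higher and 2 lower, and 87 higher and 5 lower. The largest wild-type rises were Naf1 (1.37 ± 0.14), an assembly factor of H/ACA snoRNPs, Sbds (1.13 ± 0.09) and Utp4 (1.11 ± 0.11) at 2 h. At 6 h they were Nol10 (1.83 ± 0.12), Naf1 (1.78 ± 0.14) and Shq1 (1.44 ± 0.15), and at 24 h Nol10 (1.83 ± 0.11), Lyar (1.79 ± 0.15) and Shq1 (1.67 ± 0.14).

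The largest falls of that list in wild type included Ubtf, the upstream binding factor of RNA polymerase I, at −1.72 ± 0.08 log2 units at 2 h and −0.85 ± 0.08 at 6 h. Taf1b, of the selectivity factor that brings the polymerase to its promoter, was at −0.71 ± 0.10 at 2 h and −0.56 ± 0.10 at 6 h. Utp14a was at −0.50 ± 0.09 at 2 h, and Nop53 at −0.57 ± 0.09 at 6 h and −0.61 ± 0.09 at 24 h. Mdn1, the large ATPase with which Nle1 acts, was at −0.74 ± 0.10 and Ddx55 at −0.61 ± 0.09 at 24 h. Ribosomal protein genes went the other way in share: of 73 tested, 57 were called lower and 1 higher at 2 h in wild type, 70 lower and 1 higher at 6 h, and 52 lower and 2 higher at 24 h. In the knockout 42 were lower and 1 higher at 2 h, 67 lower and 0 higher at 6 h, and 45 lower and 5 higher at 24 h.

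MYC is known to bind the E-box CACGTG, so the promoters of the 41 genes were searched for it in windows of 250 bases before to 50 bases after the annotated start (RefSeq, GRCm38.p6). The motif reads the same on both strands. Windows were held for 36 of the 41 genes, and 9 of them (25%) held CACGTG, against 8.09% of 27025 genes of the table with a window, 11.7% of the genes tested over time in wild type, 17.3% of the other ribosome biogenesis genes and 11.1% of the ribosomal protein genes. The 9 sites are printed with up to 12 bases on each side, in the direction of transcription, with the motif in capitals, to show the sequence shared by genes that rose much (Pno1), rose early (Nop2) or were not called at any time against 0 h in wild type (Nle1).
Pno1, chr11:17211540-17211564, minus strand: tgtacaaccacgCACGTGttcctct
Grwd1, chr7:45830740-45830767, minus strand: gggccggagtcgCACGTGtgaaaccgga
Nop2, chr6:125131811-125131840, plus strand: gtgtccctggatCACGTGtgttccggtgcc
Mybbp1a, chr11:72441355-72441376, plus strand: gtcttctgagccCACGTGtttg
Utp20, chr10:88826765-88826789, minus strand: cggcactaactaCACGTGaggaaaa
Pes1, chr11:3963965-3963994, plus strand: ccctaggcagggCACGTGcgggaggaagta
Utp18, chr11:93885769-93885798, minus strand: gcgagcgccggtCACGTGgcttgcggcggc
Wdr43, chr17:71616220-71616249, plus strand: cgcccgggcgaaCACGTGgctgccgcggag
Nle1, chr11:82908355-82908384, minus strand: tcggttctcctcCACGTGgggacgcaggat

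In 7 of the 9 genes the motif lay in the 50 bases after the start, and in Nop2 and Utp18 before it. The end of the window was found in no annotated transcript of Pno1, Mybbp1a or Nop2. For these genes the start and direction were not borne out in that way. After the start it was found in 19.4% of the members, against 1.55% of all genes and 2.47% of those tested over time in wild type, and before the start in 5.56% of the members, against 6.86% and 9.81%. This division was made after the windows had been seen. The 9 genes with the motif had a median difference of 0.87 log2 units at 24 h in wild type, ranging from −0.05 (Nle1) to 2.07 (Pno1). The 27 genes with a window but no motif had a median of 0.88. A match is a stretch of letters and not a measured binding site.

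Myc itself averaged 208 CPM in knockout and 195 CPM in wild type at 0 h. At 2 h its averages were 471 CPM in knockout and 472 CPM in wild type, at 6 h 438 CPM in knockout and 423 CPM in wild type, and at 24 h 447 CPM in knockout and 372 CPM in wild type. It was called higher in wild type at 2 h (1.12 ± 0.11 log2 units), 6 h (0.94 ± 0.11) and 24 h (0.99 ± 0.10). The average log2 level of the 41 genes, set relative to wild type at 0 h, was spread widely in knockout libraries at 6 h: 0.27, 1.19, 1.28, 0.95 and 0.17 for replicates 1 to 5. In wild type at 6 h it was 0.83, 0.69, 1.03, 1.09 and 0.90. Myc in the same knockout libraries stood at 212, 603, 704, 453 and 216 CPM, so the 2 libraries low in the 41 genes were also the 2 low in Myc. The part of Myc in the level of the 41 genes was not tested.

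**Figure D3:**
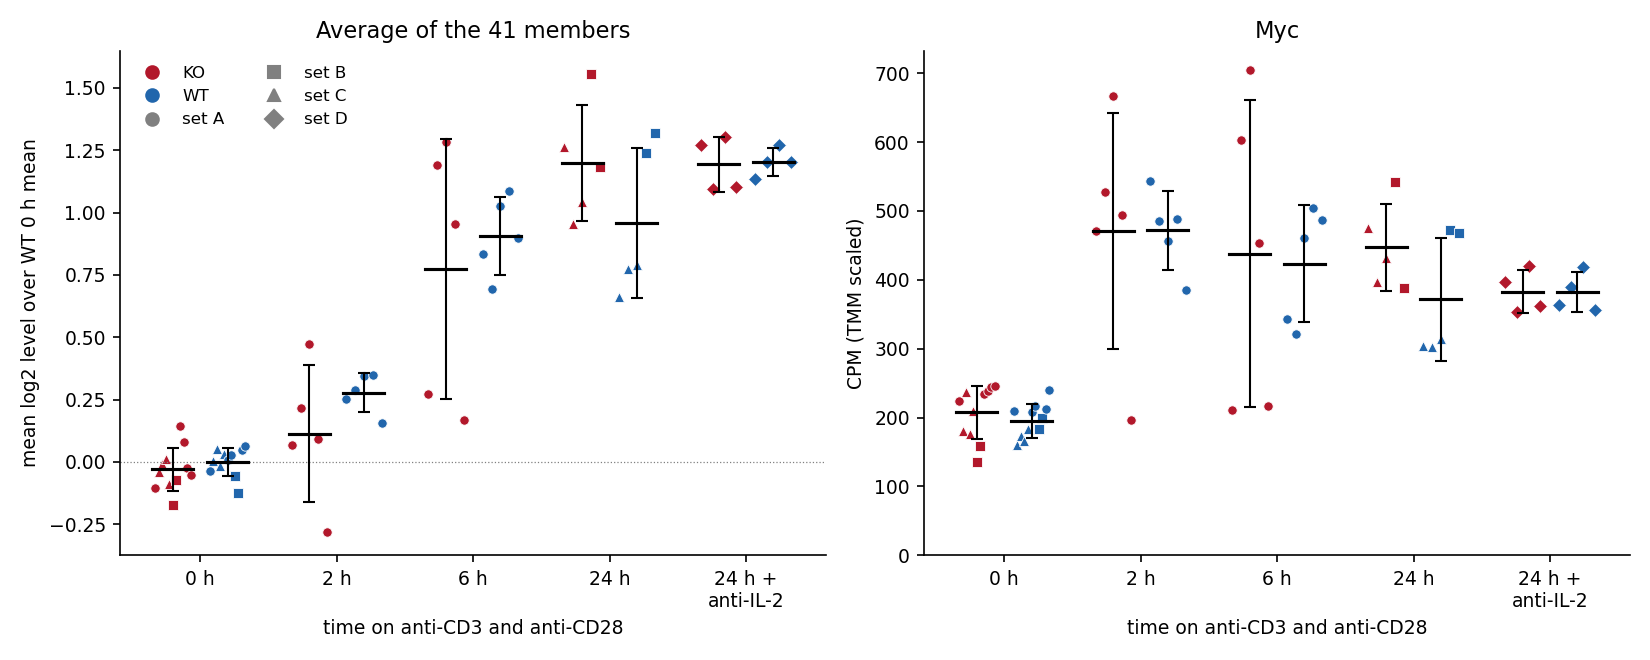
Average log2 level of the 41 genes in each library relative to the wild-type mean at 0 h (left panel, log2 units) and Myc level (right panel, CPM), by time and anti-IL-2, with knockout (KO) left of wild type (WT), point shapes for library sets and lines for mean ± SD. In the left panel knockout libraries at 6 h spread from 0.17 to 1.28, and wild-type libraries from 0.69 to 1.09.

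The genotype comparisons ask whether loss of Sh2b3 changes these genes before and during activation. At 0 h, 2 h and 6 h none of the 41 was called, where 0.633%, 0.0647% and 0.0306% of all genes were called. The median difference, knockout minus wild type, was −0.04 log2 units at 0 h with 15 of 41 above 0, −0.15 at 2 h with 4 above 0, and −0.09 at 6 h with 5 above 0. Single libraries moved the later medians. At 2 h the median lay between −0.22 (0 above 0, without knockout replicate 3) and −0.04 (9 above 0, without knockout replicate 5). At 6 h it was 0.04 without knockout replicate 1 and 0.05 without knockout replicate 5, each with 25 above 0, and lay between −0.23 and −0.04 when any other library was left out, the lowest with knockout replicate 3 removed. At an unadjusted p under 0.05 there were 2, 6 and 0 members, where 10.4%, 13.1% and 5.68% of all genes were. At 0 h the smallest p belonged to Gnl3, at 104, 128 and 157.8 CPM (lowest, median, highest) in knockout and 96.6, 120.3 and 139 CPM in wild type, and to Dkc1, at 76.3, 88.1 and 107 CPM in knockout and 85.1, 97.7 and 105 CPM in wild type. Both pairs overlapped over most of their range, at 0.11 ± 0.05 log2 units for Gnl3 (adjusted p = 0.446) and −0.10 ± 0.05 for Dkc1 (adjusted p = 0.449).

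At 2 h Polr1e stood at 33.1, 35.7, 36.5, 33.8 and 24.2 CPM in knockout and 38.2, 43.6, 49.5, 42.8 and 33.96 CPM in wild type, with −0.36 ± 0.12 log2 units (adjusted p = 0.265). Utp15 stood at 74.4, 81.6, 89.0, 77.3 and 56.0 CPM in knockout and 111, 89.1, 99.8, 102 and 77.8 CPM in wild type, with −0.35 ± 0.12 (adjusted p = 0.265). Knockout replicate 5 was lowest in both, and the remaining knockout values overlapped the lowest wild-type ones. At 6 h Utp20 stood at 128, 282, 315, 244 and 117 CPM in knockout and 241, 221, 302, 279 and 253 CPM in wild type. Rcl1 stood at 61.0, 119, 126, 102 and 52.0 CPM in knockout and 104, 96.8, 116, 109.9 and 100.9 CPM in wild type. Knockout replicates 1 and 5 lay below every wild-type library for both, whereas replicates 2 and 3 lay among or above the highest wild-type values. The differences were −0.29 ± 0.25 for Utp20 (adjusted p = 0.970) and −0.22 ± 0.21 for Rcl1 (adjusted p = 0.975).

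At 24 h 1 of the 41 genes, Gar1, was called higher in knockout and 0 lower, where 0.372% of all genes were called. Gar1 is a core protein of the H/ACA snoRNPs. It stood at 103, 98.0, 81.1, 134.5 and 132.99 CPM in knockout and 53.6, 59.3, 65.4, 75.5 and 95.6 CPM in wild type. The ranges overlapped between sets, but within set C the 3 knockout libraries (81.1 to 103 CPM) lay above the 3 wild-type ones (53.6 to 65.4 CPM), and within set B the 2 (132.99 and 134.5 CPM) lay above the other 2 (75.5 and 95.6 CPM). The difference was 0.61 ± 0.10 log2 units (adjusted p = 0.0160), and 0.62 in set B and 0.61 in set C when each was fitted alone, neither past the threshold. With no term for the set the same difference had an adjusted p of 0.467, and the call was also lost without wild-type replicate 1 or 4 or knockout replicate 4.

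The other members leaned the same way at 24 h without being called. Their median was 0.20 log2 units over the 41, with 39 above 0 and 16 at an unadjusted p under 0.05, against a median of 0.00017 over all genes tested, of which 11.7% were at such a p. As differences of mean log2 CPM within a set, the median was 0.35 in set C with 39 above 0 and 0.08 in set B with 31 above 0. Set B and set C also differed within a genotype: set B libraries were higher by a median of 0.29 log2 units in knockout and 0.56 in wild type. Without knockout replicate 5, a set B library, 7 members were called higher: Gar1, Nolc1 (0.50), Nop16 (0.45), Mybbp1a (0.43), Ddx21 (0.42), Nop2 (0.40) and Rrp12 (0.37). That fit called 1.71% of all genes higher and 1.03% lower. Of the 99 other ribosome biogenesis genes 82 were above 0 at 24 h, with a median of 0.16, 25 at an unadjusted p under 0.05 and 0 called. Ribosomal protein genes had a median of −0.01. The summed NK cell markers stood at 34.1 to 126.97 CPM in knockout and 18.99 to 54.5 CPM in wild type at 24 h. Nearly all of this sum was Eomes, since Ncr1, Klrb1c and Klra8 reached at most 2.78, 2.23 and 0.49 CPM in any library. The part of these markers in the differences was not tested.

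**Figure D4:**
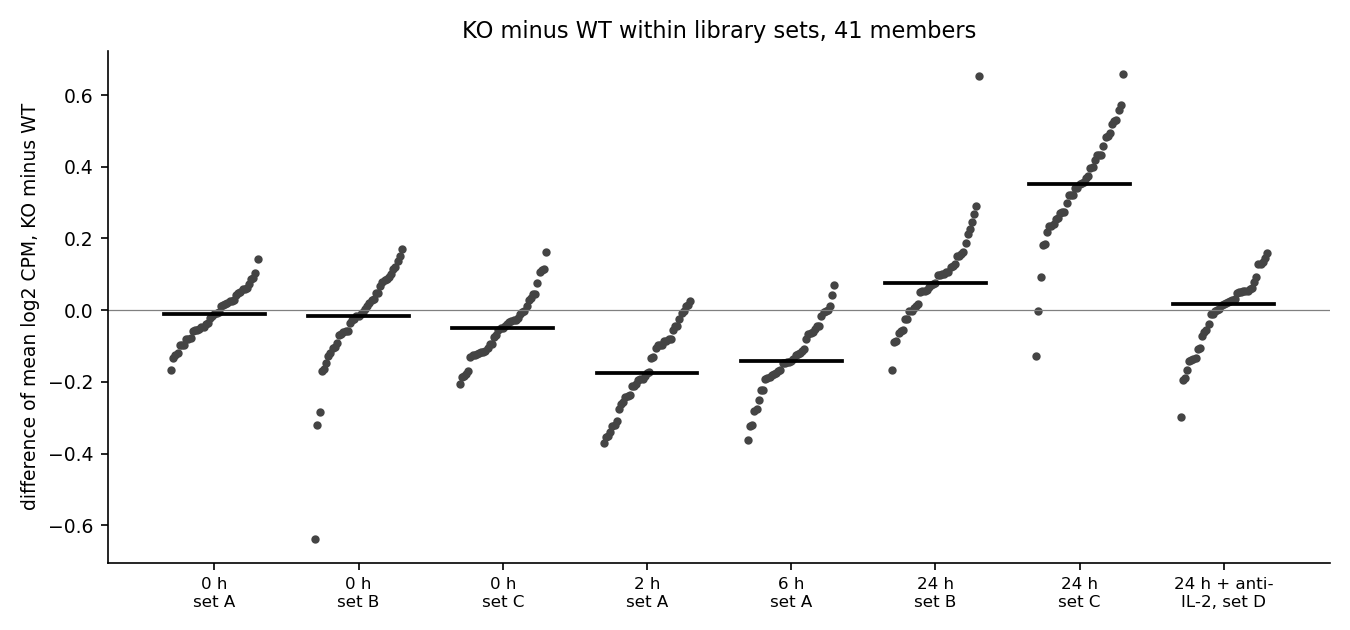
Knockout (KO) minus wild-type (WT) difference of mean log2 CPM for each of the 41 genes (vertical axis, log2 units) within each library set at each time, 1 point per gene with the median marked. At 24 h the median was 0.35 in set C and 0.08 in set B, and at 0 h it was between −0.05 and −0.01 in the 3 sets.

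The difference between the genotypes' time courses was tested as an interaction. None of the 41 was called at 2, 6 or 24 h against 0 h, where 0%, 0% and 0.14% of all genes were called. The medians were −0.11 log2 units at 2 h with 7 above 0, −0.03 at 6 h with 15 above 0, and 0.26 at 24 h with 39 above 0. With single libraries left out the 2 h median ran from −0.22 (1 above 0, without knockout replicate 3) to −0.04 (15 above 0, without knockout replicate 5). The 6 h median ran from −0.18 (3 above 0, without knockout replicate 3) to 0.06 (30 above 0, without knockout replicate 5). It was also above 0 without knockout replicate 1 or wild-type replicate 3 or 4. The 24 h median ran from 0.17 (without knockout replicate 4) to 0.32 (without wild-type replicate 5). At 24 h the largest was Gar1 at 0.76 ± 0.24 (adjusted p = 0.171), followed by Nolc1 at 0.50 ± 0.22 (adjusted p = 0.336). Gar1 at 24 h is given above, and Nolc1 stood at 497, 335, 408, 640.5 and 449.8 CPM in knockout and 259, 302, 265, 465 and 462 CPM in wild type. The smallest p at 2 h belonged to Polr1e (−0.41 ± 0.15, adjusted p = 0.667) and Wdr43 (−0.30 ± 0.16, adjusted p = 0.829), and at 6 h to Pno1 (−0.29 ± 0.20) and Wdr43 (−0.18 ± 0.16), both at an adjusted p of 1.0. Pno1 stood at 35.3, 81.3, 99.2, 64.6 and 40.2 CPM in knockout and 64.4, 56.9, 88.7, 87.2 and 79.5 CPM in wild type at 6 h, with replicates 1 and 5 again the low knockout values.

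Anti-IL-2 binds IL-2, a growth cytokine that activated T cells make, and its comparison asks whether the 24 h levels differ when that cytokine is blocked. With anti-IL-2 the average level of the 41 genes was 1.27, 1.10, 1.30 and 1.10 log2 units above wild type at 0 h in knockout and 1.13, 1.20, 1.27 and 1.20 in wild type. Without it, it was 1.26, 0.96, 1.04, 1.56 and 1.18 in knockout and 0.66, 0.77, 0.79, 1.24 and 1.32 in wild type at 24 h. The average over the 41 genes thus stood above the wild-type 0 h mean in every anti-IL-2 library. It does not show that each gene did, and set D holds no 0 h libraries. Against 24 h without the antibody, 1 member was called higher in knockout and 2 in wild type, and 0 lower in either, where 5.27% and 4.4% of all genes were called. The median difference was −0.01 log2 units in knockout (0.06 without replicate 4 of the untreated libraries) and 0.20 in wild type.

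Utp20, of the small-subunit processome, was called in both genotypes. It stood at 303, 249, 281 and 281 CPM with anti-IL-2 and 179.7, 130.0, 151, 261 and 165 CPM without it in knockout. In wild type it stood at 249, 244, 276 and 275 CPM with anti-IL-2 and 117, 146, 117, 204 and 211 CPM without it. Only knockout replicate 4 without the antibody reached the range with it, and the differences were 0.69 ± 0.14 log2 units in knockout (adjusted p = 0.0150) and 0.70 ± 0.16 in wild type (adjusted p = 0.0269). Leaving out single libraries gave adjusted p values up to 0.0646 in knockout and 0.0973 in wild type.

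Polr1a, the largest subunit of RNA polymerase I, was called higher in wild type, at 199, 199, 195 and 179.8 CPM with anti-IL-2 and 102, 131.8, 109.7, 167 and 149.9 CPM without it (0.53 ± 0.12 log2 units, adjusted p = 0.0309). In knockout it stood at 212, 193, 209 and 188 CPM with anti-IL-2 and 168, 121, 146, 216 and 133.1 CPM without it, where 0.39 ± 0.13 did not pass (adjusted p = 0.104). The wild-type groups did not overlap, and the knockout ones did through replicate 4. The call in wild type was lost without any one of the 4 anti-IL-2 libraries or without replicate 1, 2 or 3 of the untreated ones.

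The direction of the anti-IL-2 difference turned with the library set used as its counterpart. Against set C, 28 members were called higher and 0 lower in wild type (13.5% and 15.1% of all genes), with a median of 0.39, and 4 higher and 1 lower in knockout (4.77% and 7.02%), with a median of 0.12. Against set B, 2 were called higher and 3 lower in wild type (5.94% and 5.26%), with a median of −0.07, and 0 higher and 3 lower in knockout (2.68% and 3.05%), with a median of −0.11. Utp20 was called higher against either set in wild type, at 0.36 for set B and 0.96 for set C, and in knockout against set C at 0.85. Against set B in knockout 0.46 did not pass (adjusted p = 0.0725). Polr1a was likewise called higher against either set in wild type, at 0.32 for set B and 0.67 for set C. In knockout Polr1a was called against set C only, at 0.45. Of 73 ribosomal protein genes 37 were called lower with anti-IL-2 in knockout, with a median of −0.29 and 56 at an unadjusted p under 0.05. In wild type 0 were called, with a median of −0.12 and 17 at such a p. Of all genes 2.9% were called lower in knockout and 2.6% in wild type, and the interaction with genotype called 0 of the 73.

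**Figure D5:**
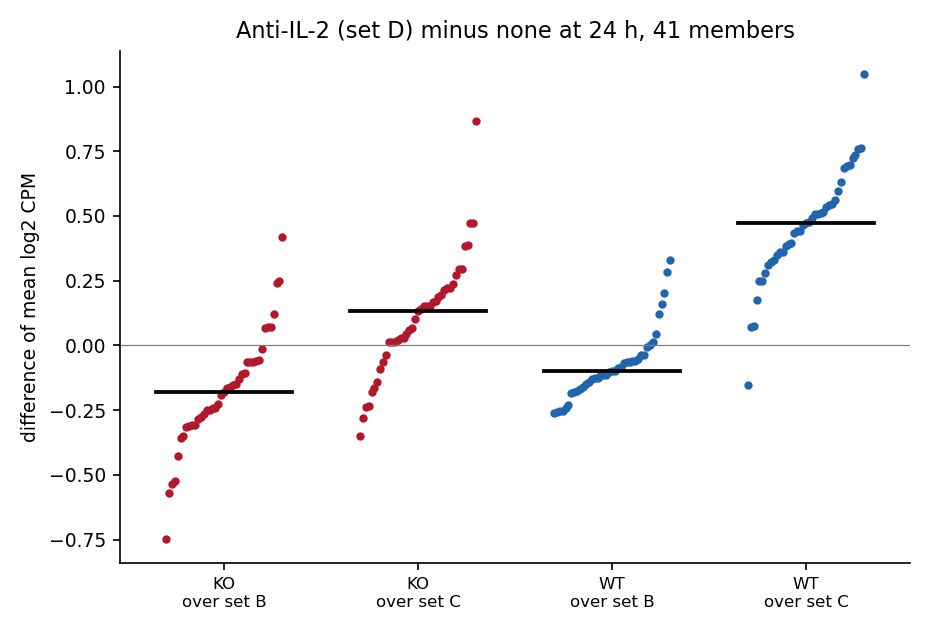
Anti-IL-2 minus no anti-IL-2 at 24 h as a difference of mean log2 CPM for each of the 41 genes (vertical axis, log2 units), in knockout (KO) and in wild type (WT), with the untreated libraries of set B or of set C as counterpart, 1 point per gene with the median marked. Medians were −0.18 (set B) and 0.13 (set C) in knockout and −0.10 and 0.47 in wild type.

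With anti-IL-2 in both genotypes, none of the 41 was called between knockout and wild type, where 0.35% of all genes were called, and 5 had an unadjusted p under 0.05, as did 9.48% of all genes. The median was 0.03 log2 units with 27 above 0, and −0.0014 with 20 above 0 without knockout replicate 3. Gar1 stood at 80.9, 78.3, 90.6 and 69.7 CPM in knockout and 84.7, 112, 106 and 90.7 CPM in wild type, at −0.28 ± 0.09 (adjusted p = 0.318). Polr1b stood at 183, 180.5, 199 and 177 CPM in knockout and 163, 154.1, 185 and 168 CPM in wild type, at 0.16 ± 0.07 (adjusted p = 0.442). Gar1 thus lay on the other side of 0 from its difference without the antibody.

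The interaction of anti-IL-2 with genotype called none of 14778 genes and none of the 41, of which 5 had an unadjusted p under 0.05, as did 4.4% of all genes. Its median over the 41 was −0.18 log2 units, with 5 above 0. It was −0.04 with 17 above 0 against set B alone, −0.26 with 2 above 0 against set C alone, and −0.09 with 13 above 0 without knockout replicate 4. Gar1 had the smallest p, at −0.90 ± 0.20 (adjusted p = 1.0), and Nop16 followed at −0.53 ± 0.21 (adjusted p = 1.0). Nop16 stood at 87.4, 69.3, 90.5 and 77.7 CPM with anti-IL-2 and 109.7, 84.7, 82.4, 136.9 and 99.9 CPM without it in knockout. In wild type it stood at 91.9, 96.1, 96.8 and 85.2 CPM with anti-IL-2 and 60.4, 57.5, 73.6, 91.2 and 109.8 CPM without it. Against set C alone, Gar1 was called in this interaction at −0.89 (adjusted p = 0.0252), whereas set B alone called 0 members. The untreated 24 h libraries enter the genotype comparison at 24 h, the anti-IL-2 comparisons and this interaction alike, so these values for Gar1 are not independent of each other.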

How the data were processed

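The authors deposited 1 table of whole-number counts, not normalized, for 60 libraries. Per the submitters' processing notes, FastQC, STAR 2.7.9a, SAMtools, Picard and featureCounts 2.0.1 of Subread were used with GRCm39. The strandedness of counting is not given in the sources used here. RNA was extracted with Qiagen or Zymo kits, per the labels' protocols. Genes were named from GENCODE M21, which named 52081 identifiers holding 99.6% of the counts, and exon lengths for CPM per kb come from that release. M21 and the promoter windows rest on GRCm38, so no coordinates of the counts are given. No 2 libraries of a group were duplicates: chi-square divided by its degrees of freedom was at least 7.33 for every pair within a group.

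The 41 genes, the other lists, the tests and the alternatives were chosen with earlier results of these data known. For each of 21 comparisons edgeR 4.0.16 (R 4.3.3) was fitted to its libraries, with filterByExpr (minimum count 10), TMM scaling, a robust quasi-likelihood F test and Benjamini-Hochberg adjustment over all genes tested. The fits of 0 h, of 24 h and of the time courses held library set as a covariate, and those with anti-IL-2 did not. Genotype and anti-IL-2 fits held the groups compared, time fits all times of a genotype, and interactions all groups concerned. Log2 levels were taken from CPM without a prior count. Errors are SE for differences and SD for levels, and counts of this depth limit precision by counting error less than by the spread between libraries. Named with full values are the members with the highest and lowest difference of each role at 24 h in wild type, the called members of each genotype or anti-IL-2 comparison, or else those with the 2 smallest p. Of the other ribosome biogenesis genes, the 3 largest called rises and falls at each time in wild type with a mean of at least 4 CPM are named. Every fit was first tested on simulated data. Alternatives were DESeq2 1.42.0 size factors or Wald test, library totals, no filter, no set term, single sets, a change of at least 1.5-fold, leaving out single libraries, and, added after the data were seen, the anti-IL-2 libraries against set B or C alone, sets B and C alone for the interaction with time, and a replicate block from library numbers 10 apart in set A. The labels do not say that such numbers pair libraries. Correlations of same-number deviations ran from 0.11 to 0.74 in knockout (median 0.32) and −0.08 to 0.24 in wild type (median 0.06). Between different numbers they ran from −0.51 to 0.36 in knockout (median −0.05) and −0.25 to 0.25 in wild type (median −0.03). The main fits held no such pairing.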

Additional observations from a re-analysis of the deposited data

Results flagged for a closer look

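A library far from the rest of its group, by Dixon's test at the 95% level, was found in 7 of 352 groups of 4 or 5 libraries, each group being the levels of 1 of the 41 genes, their sum, Sh2b3 or Myc in 1 condition. Chance flags about 1 in 20 groups. Among knockout libraries at 2 h, Polr1e was lowest in replicate 5, at 24.2 CPM, with the nearest other library at 33.1 CPM. In wild type at 2 h, Rrp9 was lowest in replicate 1, at 54.8 CPM (nearest 65.4 CPM), and Mybbp1a was lowest in replicate 5, at 270.3 CPM (nearest 315 CPM). In wild type at 6 h, replicate 4 was highest for Nhp2, at 103 CPM (nearest 85.5 CPM), and for Ppan, at 172 CPM. In wild type at 24 h, Wdr12 was lowest in replicate 1, at 98.5 CPM (nearest 119 CPM). With anti-IL-2 in wild type, Nop2 was highest in replicate 3, at 232 CPM (nearest 214 CPM).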

How the results depend on the processing

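At 0 h and 6 h the genotype comparisons called 0 members under every alternative run, as did the genotype comparison with anti-IL-2 and the interactions with time at 2 and 6 h. Against 0 h, counts of called members stayed within 1.5 times of those reported under every alternative, except with a change of at least 1.5-fold at 2 h, which left 4 in knockout and 9 in wild type. That threshold also left 22 at 6 h against 2 h and 3 at 24 h against 6 h in wild type, where anti-IL-2 then gave 1. With no filter on low counts 1 member was called between genotypes at 2 h, 4 at 24 h, 3 for anti-IL-2 in knockout, 4 at 24 h against 6 h in knockout and 2 in the interaction with time at 24 h. The DESeq2 Wald test called 3 between genotypes at 24 h and 3 for anti-IL-2 in knockout, where library totals also gave 3. With no set term 0 were called between genotypes at 24 h and 17 at 24 h against 6 h in knockout. Set B alone and set C alone each called 0 between genotypes at 24 h. Against set B alone, anti-IL-2 gave 3 in knockout and 5 in wild type, and against set C alone 5 and 28, with 1 in the interaction with genotype. Leaving out 1 library gave 0 to 7 called between genotypes at 24 h, 0 to 3 for anti-IL-2 in knockout, 0 to 4 in wild type, and 7 to 17 at 24 h against 6 h in knockout. Of single members 5 were called with the other sign under an alternative, all in wild type with set B in place of sets B and C (at 0 h, of all sets). Nob1 was 0.46 and Nle1 0.47 log2 units higher at 24 h than at 0 h, and with anti-IL-2 Ncl was at −0.20, Pa2g4 at −0.23 and Ddx18 at −0.21. The cause was not tested.

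With a replicate block from library numbers in set A, 11 members were called at 2 h, 37 at 6 h and 35 at 6 h against 2 h in knockout, and 26, 38 and 38 in wild type. Without the block the same libraries gave 7, 37 and 28 in knockout and 26, 38 and 38 in wild type. Scaling by library totals shifted the median of all genes by 0.12 in knockout and 0.18 in wild type at 6 h against 0 h, by 0.14 and 0.15 at 6 h against 2 h, by −0.10 in knockout at 24 h against 6 h and by 0.11 in wild type at 24 h against 0 h. The share of higher calls among all genes called became 66.2% in knockout and 66.2% in wild type at 6 h against 0 h (53.5% and 50.8% with TMM), 75.5% and 71.8% at 6 h against 2 h (55.3% and 50.4%), 64.1% and 51.4% for anti-IL-2 (44.9% and 40.9%), 38.7% for the interaction with time at 24 h (54.5%), and 33.3% for knockout against wild type at 2 h (50%). Depth limits the least expressed members little, since all 41 passed the count filter.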
